A study of Mus musculus with 14 samples.

Results

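The genes described here are 43 genes of macrophages and monocytes in the irradiated mouse heart. They were taken by symbol from the 54532 genes of the count table, and each of the 43 symbols named 1 row. The list joins genes that mark macrophages as a class, genes shared with monocytes and other leukocytes, and genes of macrophages that carry lipid or lie in scars. All 43 passed the filter on low counts that left 16034 genes for the tests.

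RNA of cardiac tissue was sequenced from 14 male C57BL/6J mice, all labelled WT and 8 weeks old at irradiation, with 1 library per mouse. The irradiated mice received 30 Gy of cobalt γ-rays to the front of the chest while lead shielded the rest of the body. Irradiated hearts were taken after 1 day (IRR_1d, n = 3) or after 6 weeks (IRR_6w, n = 4), and unirradiated hearts at the same times (Control_1d, n = 3, and Control_6w, n = 4).

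Macrophages are the most abundant leukocytes of the healthy heart, where they clear dying cells and debris and help conduct the heartbeat. Some were seeded before birth and renew in place, and others come from blood monocytes, a supply that grows after injury. The transcription factor PU.1, encoded by Spi1, sets up the lineage, and signalling from Csf1 to its receptor Csf1r keeps the cells alive. RNA of whole tissue gives an average over all its cells, so more macrophages and more of a transcript per macrophage cannot be told apart here.

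Libraries held 13336746 to 16837265 counts. Levels are given as CPM, the counts of a gene scaled to a common library total, in the order of the replicate numbers. Some libraries stood apart. Control_6w replicate 3 held 3227 CPM of 6 thymocyte markers, where the other 13 libraries held 0 to 39.9, and its summed cardiomyocyte markers were the lowest of all libraries (4623 CPM, against 9031 to 33160). IRR_6w replicate 1 held 496 CPM of 6 lung epithelial markers (0 to 32.9 in the others) and 3318 CPM of 4 atrial markers (9.24 to 1217 in the others). In Control_1d replicate 1 and IRR_6w replicates 3 and 4, genes under 1000 bases were low relative to genes over 3000 bases, by 0.663, 0.800 and 0.889 on the log2 scale. The same difference ran from -0.197 to 0.425 in the other libraries. Of the genes with a mean of 2 to 5 CPM in the other libraries, these 3 held 39.7%, 30.2% and 14.8% at 0, where the rest held 0.108% to 8.15%, so a level of 0 in these 3 is not read as absence. Summary counts and the genes most affected are given with and without these libraries.

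At 6 weeks after irradiation nearly the whole list stood higher than in the controls. Of the 43 genes, 42 had a log2 fold change above 0, and the median was 1.23, where 43.8% of the 16034 genes were above 0 and their median was -0.09. In 27 genes every IRR_6w library was above every Control_6w library, against 6.63% of all genes tested, and in no gene was it the reverse (0.493% of all genes). Mitochondrial genes took 10.4% to 22.2% of the counts in IRR_6w and 22.3% to 30.3% in Control_6w, and the part of that share in the CPM values was not tested beyond the scaling that follows. With TMM scaling 23 of the 43 were without overlap (4.08% of all genes), and Csf1, Ms4a7 and Axl were among those that then overlapped. Below, the overlap of single genes refers to CPM by library totals unless TMM scaling is named. A gene was called when its fold change was above 2 or below 0.5 and its Benjamini-Hochberg adjusted p over all genes was under 0.05 by edgeR's quasi-likelihood test. By this rule 2 of the 43 genes rose, Siglec1 and Cybb, beside 0.237% of all genes tested, and none fell (0.0187% of all genes, so 0.256% in either direction). At an unadjusted p under 0.05 with the same fold limits, 26 of the 43 were higher, beside 3.69% of all genes, and none was lower (1.75%). The number called depended on the test: DESeq2 on all libraries called 15 higher (1.92% of its genes) and limma 22 (2.79%).

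At 1 day after irradiation there was no such general difference. The genes divided into 25 with a log2 fold change above 0 and 18 below, with a median of 0.21, where 55.1% of all genes were above 0 with a median of 0.06. edgeR called none of the 43 in either direction (0.0249% of all genes were called higher and 0% lower), 3 were higher and none lower at an unadjusted p under 0.05 (1.56% and 0.674% of all genes), and DESeq2 called 1 (0.161% of its genes) and limma 2 (0.218%). The groups did not overlap in 6 genes, all higher in IRR_1d (7.28% of all genes), and in no gene was IRR_1d wholly lower (1.97%). This count moved with single libraries: without Control_1d replicate 1, which held the highest level of its group in 29 of the 43 genes, it was 17, and without IRR_1d replicate 2 it was 15, while the share of all genes rose as well, to 16.5% and 21.1%. IRR_1d replicate 3 held the highest level of its group in 38 of the 43 genes, and with it 304 CPM of 3 brown fat markers, where the other IRR_1d libraries held 8.69 and 14.5.

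**Figure D1:**
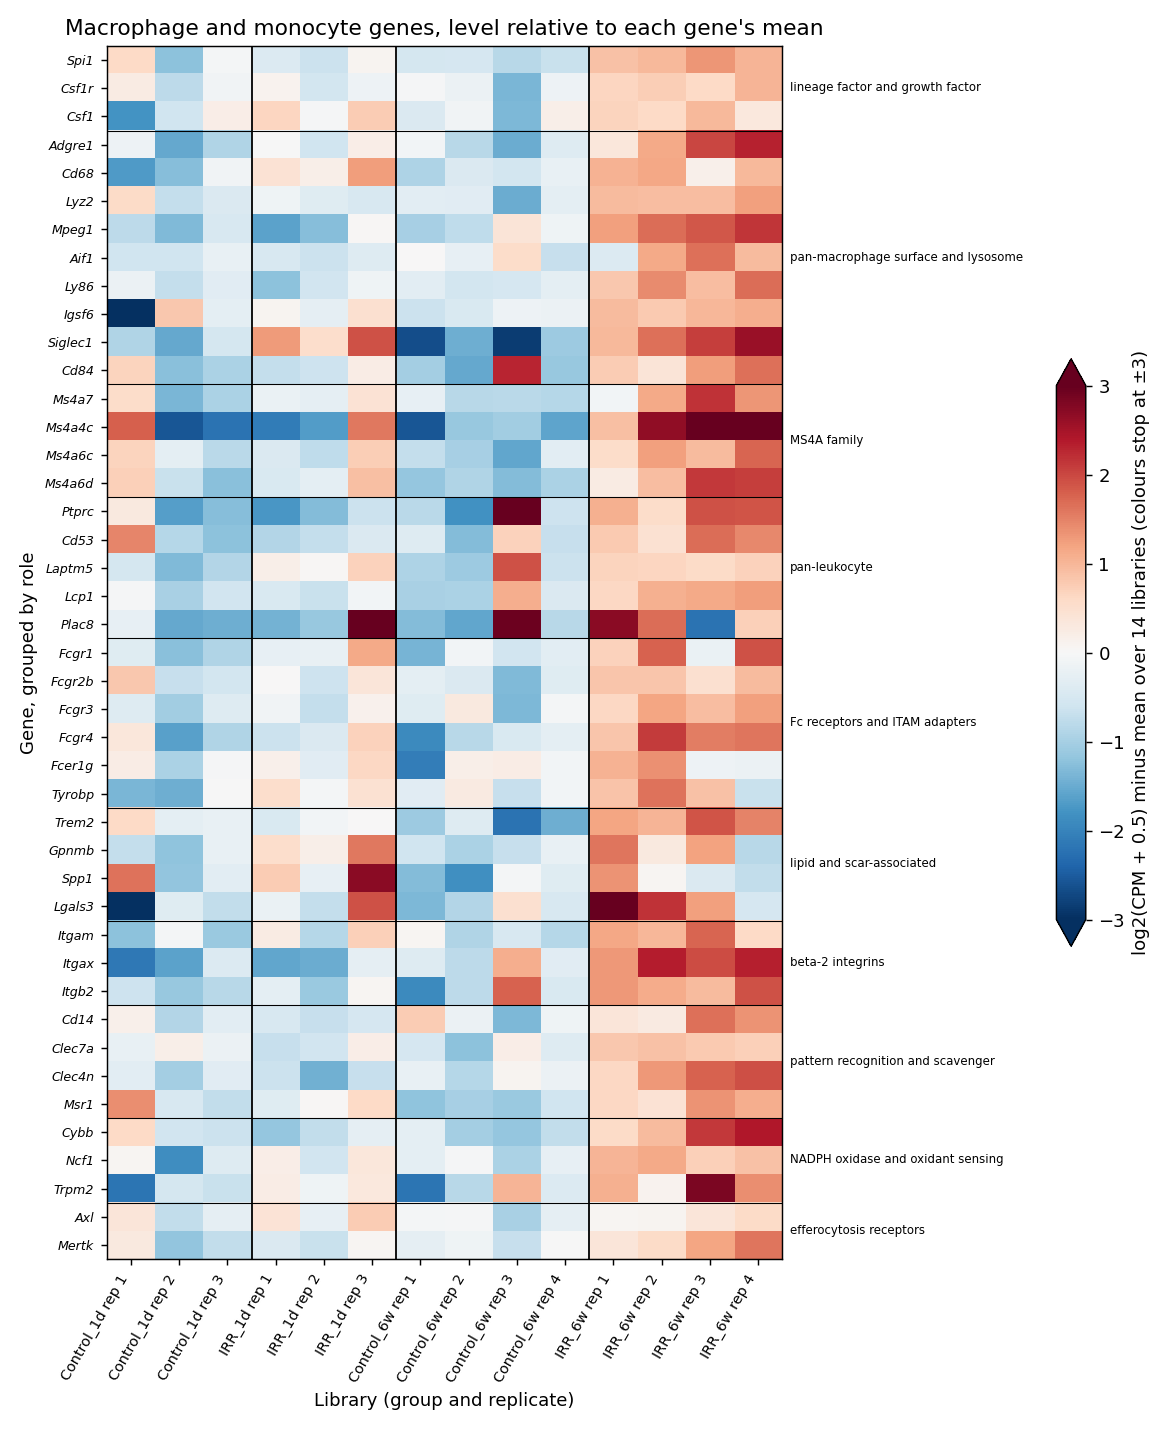
Level of each of the 43 genes (rows, grouped by role) in each of the 14 libraries (columns), as log2(CPM + 0.5) minus the mean of that gene over the libraries; colours stop at ±3. The 4 IRR_6w columns are red in most rows, and the column of Control_6w replicate 3 stands out red in Ptprc, Cd84, Laptm5, Plac8 and Itgb2.

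The controls of the 2 times differed little. Between Control_6w and Control_1d, 21 genes were above 0 and 22 below, with a median of -0.03, where 59.1% of all genes were above 0 with a median of 0.12. None was called by edgeR (0% of all genes), DESeq2 (0.0965% higher) or limma (0.15% higher), and at an unadjusted p under 0.05 with the fold limits 1 was higher (2.72% of all genes) and 2 were lower (1.03%). The higher gene was Ptprc, which rests on Control_6w replicate 3. Msr1 (log2 fold change -1.43 ± 0.44 (SE), adjusted p = 0.902) and Trem2 (log2 fold change -1.5 ± 0.57 (SE), adjusted p = 0.902) were the lower ones, and Trem2 was the only one of the 43 whose control groups did not overlap, lower in Control_6w (1.03% of all genes), while none was wholly higher (5.77%).

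Between the irradiated groups, 37 genes were above 0 in IRR_6w against IRR_1d and 6 below, with a median of 1.01, where 48.5% of all genes were above 0 with a median of -0.02. The groups did not overlap in 23 genes, all higher at 6 weeks (10.7% of all genes, and 1.12% lower). edgeR called none (0.0312% of all genes higher and 0.00624% lower, 0.0374% in all). At an unadjusted p under 0.05, 15 were higher and none lower (3.06% and 0.786% of all genes), and DESeq2 called 5 (0.849%) and limma 13 (1.83%). The difference between the irradiation effects at 6 weeks and at 1 day was tested directly as an interaction. It was above 0 in 34 genes with a median of 1.03, where 41.4% of all genes were above 0 with a median of -0.15, and edgeR called none of the 43 (0% of all genes). At an unadjusted p under 0.05 the effect was larger at 6 weeks in 15 genes and smaller in none (1.98% and 0.879% of all genes). DESeq2 called 2, Cybb and Trem2 (0.244%), and limma 1, Cybb (0.106%).

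In 14 of the 43 genes, every IRR_6w library was above all 10 other libraries, which held for 1.78% of all genes tested. They were Spi1, Csf1r, Adgre1, Lyz2, Mpeg1, Ly86, Fcgr3, Fcgr4, Trem2, Itgax, Clec7a, Clec4n, Ncf1 and Mertk. With TMM scaling, which sets the libraries level over most genes, the number was 9. Adgre1, Fcgr3, Fcgr4, Clec7a and Mertk then overlapped another library. The share of all genes under that scaling was not counted, so the 9 cannot be set against it.

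**Figure D2:**
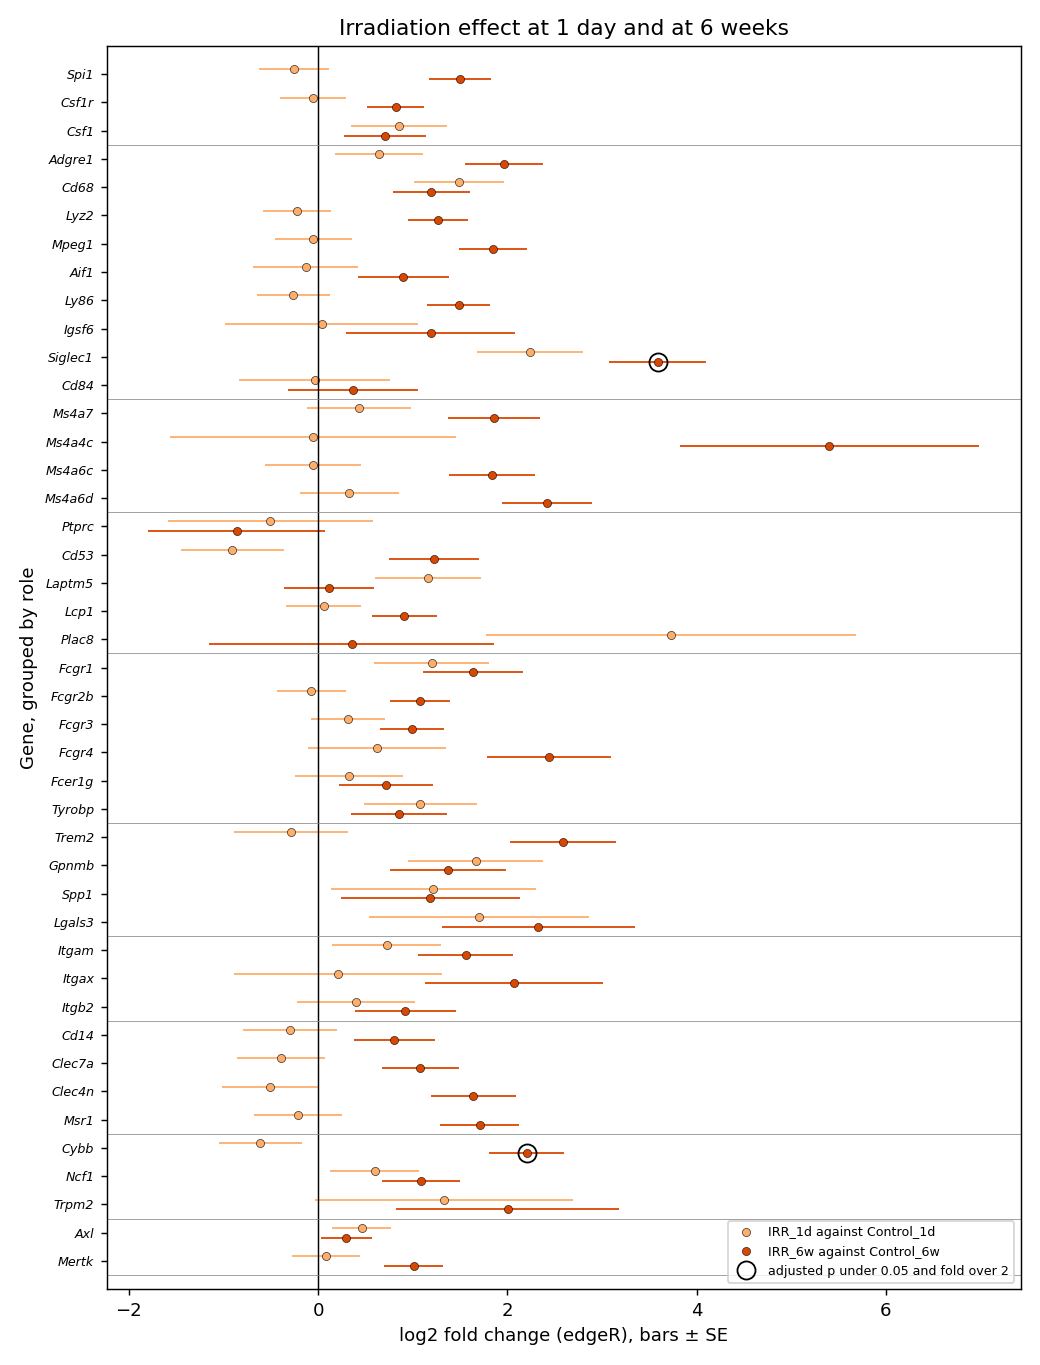
Log2 fold change of the 43 genes after irradiation at 1 day (light points) and at 6 weeks (dark points), with bars of ± 1 SE from edgeR; circles mark the 2 called genes. At 6 weeks all points but Ptprc lie above 0, and at 1 day they lie on both sides of it.

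Spi1, the master transcription factor of the lineage, was measured at low levels. It stood at 6.99, 7.10, 5.59 and 6.28 CPM in Control_6w and 19.3, 20.6, 26.6 and 21.3 CPM in IRR_6w. The groups were well apart, with a mean difference that did not pass the adjusted threshold (log2 fold change 1.5 ± 0.33 (SE), adjusted p = 0.0776). At 1 day Spi1 stood at 15.7, 4.09 and 9.88 CPM in Control_1d and 7.57, 6.39 and 10.8 CPM in IRR_1d, and these ranges overlapped, with a log2 fold change between -0.53 and 0.22 over the settings tried. The interaction for Spi1 was 1.76 ± 0.50 (SE) on the log2 scale, with an unadjusted p of 0.00314 and an adjusted p of 0.915. Csf1r, the receptor that transmits the survival signal, ranged from 32.5 to 83.0 CPM in Control_6w and from 129 to 173 CPM in IRR_6w without overlap (log2 fold change 0.82 ± 0.30 (SE), adjusted p = 0.388). Csf1, its ligand, which fibroblasts and endothelium also make, ranged from 20.3 to 59.5 CPM in Control_6w and from 65.6 to 103 CPM in IRR_6w (log2 fold change 0.71 ± 0.44 (SE), adjusted p = 0.702). With TMM scaling the Csf1 groups overlapped. Both the receptor and its ligand were lowest in Control_6w replicate 3 among those controls, and without it the log2 fold change of Csf1 was 0.45.

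PU.1 recognises purine-rich DNA with a GAGGAA core, and interferon regulatory factors bind GAAA repeats, such as 2 copies of GAAA with any 2 bases between them. RefSeq promoters (GRCm38.p6, 250 bases before to 50 after the transcription start) were at hand for 33 of the 43 genes, and were searched for these letters on both strands. GAGGAA was found in 19 of the 33 (57.6%), and in 31.25% of 27025 genes with a promoter. GAGGAAGT, a longer form that contains GAGGAA, was in 3 (9.09%, against 3.69% of genes). The GAAA repeat was in 5 (15.2%, against 3.99% of genes), namely Aif1, Cybb, Fcgr4, Ncf1 and Spp1. These matches describe the letters in the window and not occupied sites. The promoters of 4 genes with large differences at 6 weeks are shown from 250 bases before to 30 after the start, 5′ to 3′ on the strand of the gene, as examples of how the matches lie. Capitals mark GAGGAA and the GAAA repeat or their reverse complements. The Cybb window is chrX:9469295-9469574 (minus strand), that of Trem2 chr17:48346151-48346430 (plus), that of Fcgr4 chr1:171018676-171018955 (plus) and that of Ms4a4c chr19:11407411-11407690 (plus). The windows of Cybb and Ms4a4c lie inside these genes as counted, whose 5′ ends are at 9487771 and 11404770.
Cybb: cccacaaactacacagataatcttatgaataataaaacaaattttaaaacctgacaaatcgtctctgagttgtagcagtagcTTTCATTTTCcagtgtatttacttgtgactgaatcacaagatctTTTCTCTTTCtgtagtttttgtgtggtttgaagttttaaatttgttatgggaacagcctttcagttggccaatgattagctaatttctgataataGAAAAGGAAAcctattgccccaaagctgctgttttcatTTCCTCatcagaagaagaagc
Trem2: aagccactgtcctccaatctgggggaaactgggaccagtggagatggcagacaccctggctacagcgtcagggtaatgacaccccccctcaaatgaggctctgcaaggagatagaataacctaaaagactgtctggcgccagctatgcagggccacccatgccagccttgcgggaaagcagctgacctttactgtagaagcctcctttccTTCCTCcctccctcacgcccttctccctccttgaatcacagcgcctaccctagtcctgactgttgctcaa
Fcgr4: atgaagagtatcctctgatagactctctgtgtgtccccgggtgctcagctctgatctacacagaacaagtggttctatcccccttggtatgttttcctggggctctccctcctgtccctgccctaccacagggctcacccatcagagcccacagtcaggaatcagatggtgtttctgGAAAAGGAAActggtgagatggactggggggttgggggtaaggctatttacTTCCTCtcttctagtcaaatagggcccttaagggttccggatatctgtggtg
Ms4a4c: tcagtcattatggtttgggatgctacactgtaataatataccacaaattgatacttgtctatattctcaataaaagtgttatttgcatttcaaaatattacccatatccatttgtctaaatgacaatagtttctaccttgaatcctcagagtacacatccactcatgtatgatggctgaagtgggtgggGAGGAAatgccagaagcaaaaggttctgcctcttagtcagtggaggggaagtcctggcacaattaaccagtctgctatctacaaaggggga
The Cybb window holds the GAAA repeat 3 times and GAGGAA once, that of Fcgr4 holds each once, and those of Trem2 and Ms4a4c hold GAGGAA once and the GAAA repeat not at all.

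Siglec1 and the other macrophage surface and lysosomal genes were all above 0 at 6 weeks, 9 of 9 (43.8% of all genes tested), with 1 called (0.237% of all genes) and 7 without overlap (6.63%). Siglec1 (CD169, a sialic acid-binding receptor of tissue macrophages that is inducible by interferon) lies on chromosome 2 from 131069220 to 131086765 on the minus strand of mm10. Its levels were 2.28, 5.82, 1.91 and 7.70 CPM in Control_6w and 33.8, 54.5, 72.7 and 104 CPM in IRR_6w. The lowest irradiated library was above the highest control, and Siglec1 rose (log2 fold change 3.59 ± 0.51 (SE), adjusted p = 0.0188). Siglec1 was also high at 1 day, with 8.85, 5.55 and 11.6 CPM in Control_1d and 42.1, 24.7 and 64.8 CPM in IRR_1d. The groups at 1 day did not overlap (log2 fold change 2.24 ± 0.56 (SE), adjusted p = 0.741). DESeq2 on all libraries (adjusted p = 0.0316) and limma (adjusted p = 0.0261) called this early difference, and edgeR did not. The 6 week call of Siglec1 was lost on leaving out Control_6w replicate 1 or 2, IRR_6w replicate 3 or IRR_6w replicate 4, with adjusted p from 0.0567 to 0.10 and log2 fold changes from 3.34 to 3.74, and without the 3 libraries low in short genes (3.10, adjusted p = 0.201).

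**Figure D3:**
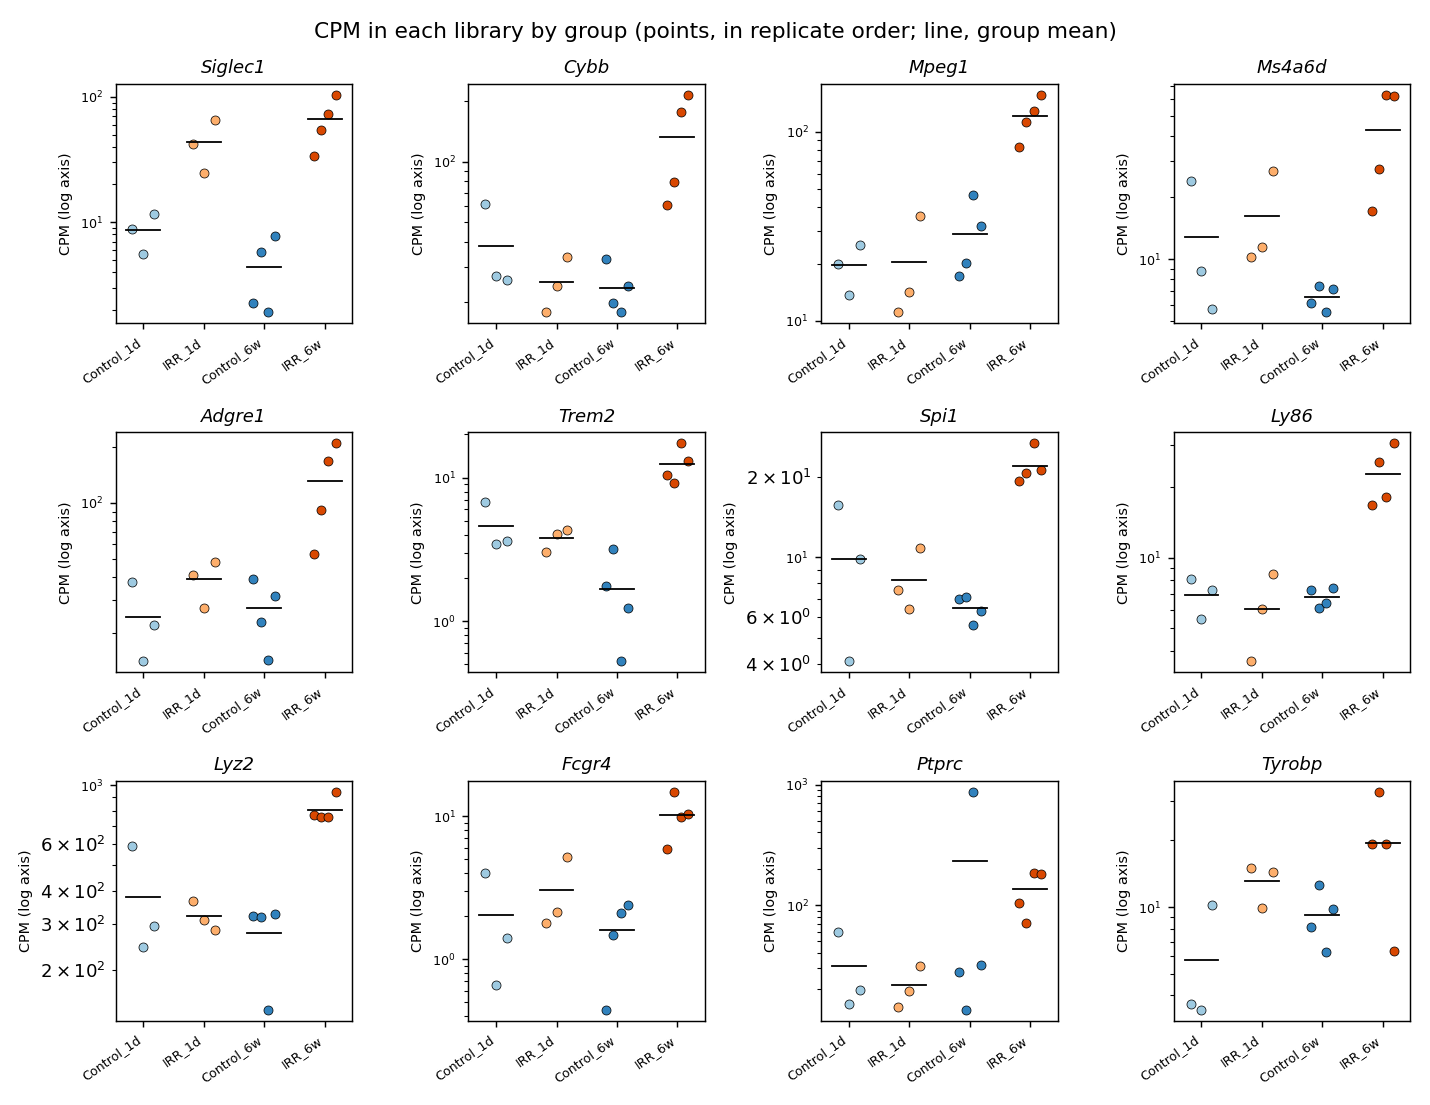
CPM of 12 genes in every library on log axes, by group and in the order of the replicate numbers, with a line at the group mean. Siglec1 is high in both irradiated groups, Cybb to Fcgr4 are high in IRR_6w, and 1 Control_6w library reaches 864 CPM of Ptprc.

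Mpeg1 encodes perforin-2, which forms pores in engulfed bacteria. It stood at 17.2, 20.3, 46.1 and 31.8 CPM in Control_6w and 83.2, 113, 129 and 158 CPM in IRR_6w. The gap between the groups was wider than the whole control range, and the adjusted p missed the threshold (log2 fold change 1.85 ± 0.36 (SE), adjusted p = 0.0522). In the 1 day libraries Mpeg1 was at 20.1, 13.7 and 25.1 CPM in Control_1d and 11.1, 14.2 and 36.0 CPM in IRR_1d, with the groups mixed. Against IRR_1d, the IRR_6w level of Mpeg1 differed by 2.28 ± 0.41 (SE) on the log2 scale, with an adjusted p of 0.0745.

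Adgre1 encodes F4/80, the classical marker of mouse macrophages. Its levels were 39.3, 23.1, 14.5 and 31.9 CPM in Control_6w and 53.2, 91.7, 169 and 209 CPM in IRR_6w. The irradiated libraries spread widely, and replicates 3 and 4 held most of the difference (log2 fold change 1.97 ± 0.41 (SE), adjusted p = 0.0663). At 1 day it stood at 37.6, 14.2 and 22.1 CPM in Control_1d and 41.3, 27.4 and 48.1 CPM in IRR_1d, and the groups overlapped. Without Control_1d replicate 1 and IRR_6w replicates 3 and 4, the libraries low in short genes, its log2 fold change at 6 weeks was 1.22.

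Ly86 encodes MD-1, a partner of the Toll-like receptor homologue RP105. It was at 7.29, 6.10, 6.38 and 7.45 CPM in Control_6w and at 16.6, 25.4, 18.1 and 30.5 CPM in IRR_6w. The 4 controls were almost level and all irradiated libraries were above them (log2 fold change 1.49 ± 0.34 (SE), adjusted p = 0.0901). At 1 day Ly86 stood at 8.09, 5.48 and 7.26 CPM in Control_1d and 3.63, 6.05 and 8.47 CPM in IRR_1d, with no separation.

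Lyz2, lysozyme of macrophages and granulocytes, was the most abundant of the 43. It stood at 322, 317, 141 and 326 CPM in Control_6w and 773, 760.0, 758 and 942 CPM in IRR_6w. Every irradiated library was above every control, and Control_6w replicate 3 was the lowest of all (log2 fold change 1.26 ± 0.32 (SE), adjusted p = 0.124). The 1 day libraries held 592, 245 and 294 CPM in Control_1d and 366, 310.2 and 284 CPM in IRR_1d, within the control range. Of short stretches of the Lyz2 transcripts, 5.96% also occur in Lyz1, its near copy, so a small part of its counts may be shared.

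Of the remaining surface and lysosomal genes, Cd68 (macrosialin, a lysosomal membrane protein) did not overlap between the groups at either time, at 1 day (log2 fold change 1.49 ± 0.48 (SE), adjusted p = 1) or at 6 weeks (log2 fold change 1.20 ± 0.41 (SE), adjusted p = 0.339). Igsf6, a surface receptor of the immunoglobulin family, was without overlap at 6 weeks as well, at 2.5 to 3.75 CPM in Control_6w and 7.61 to 9.5 CPM in IRR_6w (log2 fold change 1.19 ± 0.89 (SE), adjusted p = 0.761). Aif1, which encodes the actin-binding protein IBA1, overlapped, with 3.72 CPM in IRR_6w replicate 1 and 10.3 to 17.3 CPM in the other 3 (log2 fold change 0.90 ± 0.48 (SE), adjusted p = 0.631). Cd84, an adhesion receptor also found on lymphocytes, was at 67.7 CPM in Control_6w replicate 3 and at 4.33 to 6.40 CPM in the other controls, below the 17.7 to 43.6 CPM of IRR_6w. Its log2 fold change at 6 weeks was 0.37 with that library and 2.07 without it.

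The 4 MS4A genes encode small membrane proteins with 4 spans, some of which modulate Fc and Toll-like receptor signalling in macrophages. They sit together on chromosome 19 between 11321039 and 11604849. In CPM by library totals none overlapped between the groups at 6 weeks, where 6.63% of all genes were wholly higher in IRR_6w. Ms4a6d was at 6.11, 7.38, 5.53 and 7.14 CPM in Control_6w and 17.1, 27.6, 63.3 and 62.2 CPM in IRR_6w (log2 fold change 2.42 ± 0.47 (SE), adjusted p = 0.0537). Ms4a6c stood at 5.30, 4.33, 2.76 and 7.21 CPM in Control_6w and 13.5, 22.0, 18.1 and 31.7 CPM in IRR_6w (log2 fold change 1.83 ± 0.45 (SE), adjusted p = 0.118). In both genes the lowest irradiated library was above the highest control. Without Control_1d replicate 1 and IRR_6w replicates 3 and 4, the log2 fold change of Ms4a6d was 1.59 (adjusted p = 0.38). Ms4a7, a marker of macrophages that come from monocytes, was at 6.70, 4.33, 4.41 and 4.19 CPM in Control_6w and 7.51, 18.2, 37.8 and 21.0 CPM in IRR_6w (log2 fold change 1.86 ± 0.49 (SE), adjusted p = 0.141). IRR_6w replicate 1 was little above the highest control in Ms4a7, and with TMM scaling it was below that control. Ms4a4c, which monocytes carry and interferon induces, stood at 0, 0.852, 0.921 and 0.493 CPM in Control_6w and 5.0, 18, 39.7 and 53.0 CPM in IRR_6w. Its fold change was the largest of the 43 and had the largest SE of the MS4A genes (log2 fold change 5.40 ± 1.58 (SE), adjusted p = 0.21). The controls held 0 to 14 counts each, and the fold change was 4.21 without the 3 libraries low in short genes.

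At 1 day the MS4A genes followed 2 libraries, 1 of each group. Ms4a6d was at 23.9, 8.77 and 5.71 CPM in Control_1d and 10.2, 11.54 and 26.9 CPM in IRR_1d, and Ms4a6c at 14.8, 7.31 and 4.97 CPM in Control_1d and 6.64, 5.14 and 15.4 CPM in IRR_1d. Ms4a7 was at 12.0, 2.78 and 3.90 CPM in Control_1d and 6.95, 6.60 and 11 CPM in IRR_1d. Ms4a4c stood at 9.75, 0 and 0.134 CPM in Control_1d and 0.184, 0.417 and 8.40 CPM in IRR_1d. In each of the 4, Control_1d replicate 1 and IRR_1d replicate 3 were the highest of their groups, and none was without overlap. Over the settings tried the log2 fold change ran from -3.09 to 4.99 in Ms4a4c and from 0.20 to 1.06 in Ms4a7, so the direction at 1 day was not settled in Ms4a4c. Of the exonic bases of Ms4a6c, 53.1% lie opposite exons of BE692007 on the other strand, and whether the counting used strand was not stated.

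Of the 5 leukocyte genes that are not restricted to macrophages, none was without overlap at 6 weeks (6.63% of all genes). Their median log2 fold change was 0.36, a value that turned on Control_6w replicate 3. Ptprc (CD45, the phosphatase on all white blood cells) stood at 27.6, 13.5, 864 and 31.6 CPM in Control_6w and 103, 70.9, 184 and 181 CPM in IRR_6w. Replicate 3 of the controls, the library with the thymocyte markers, was far above every irradiated library, and the other 3 controls were below all of them. With that library the log2 fold change of Ptprc was -0.86 ± 0.93 (SE), and without it 2.14 (adjusted p = 0.0684). Laptm5, a lysosomal protein of blood cells, was at 267 CPM in that library, at 33.2 to 45.1 CPM in the other controls and at 107 to 115 CPM in IRR_6w. Its log2 fold change went from 0.11 to 1.22 without the library (adjusted p = 0.0292). Lcp1 (L-plastin, an actin bundler of leukocytes) went from 0.91 to 1.48 (adjusted p = 0.0268) in the same way. Cd53, a tetraspanin of leukocytes, went from 1.23 to 1.62 (adjusted p = 0.208). Plac8, a gene of monocytes and other leukocytes, was at 0.442, 0.284, 17.3 and 0.801 CPM in Control_6w and 14.5, 6.84, 0 and 3.27 CPM in IRR_6w, with no order between the groups. Without both that control and IRR_6w replicate 1, edgeR called 10 of the 43 genes higher at 6 weeks (0.8% of all genes), and Ptprc, Cd84, Laptm5, Lcp1 and Itgb2 were among them.

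At 1 day Laptm5 was the only leukocyte gene without overlap, at 28.1 to 49.0 CPM in Control_1d and 73.5 to 115 CPM in IRR_1d (log2 fold change 1.17 ± 0.56 (SE), adjusted p = 1). Plac8 was below 1.46 CPM in 5 of the 6 libraries and at 28.7 CPM in IRR_1d replicate 3, and its log2 fold change of 3.73 became -0.40 without that library.

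Fc receptors bind antibody, and most signal through the adapter encoded by Fcer1g. Of the 6 genes of this group all had log2 fold changes above 0 at 6 weeks (43.8% of all genes), 3 without overlap (6.63%) and none called (0.237%). Fcgr4, a receptor for IgG2 antibodies, was at 0.442, 1.49, 2.10 and 2.40 CPM in Control_6w and 5.88, 14.8, 9.82 and 10.4 CPM in IRR_6w (log2 fold change 2.44 ± 0.66 (SE), adjusted p = 0.156). Fcgr2b, the inhibitory receptor, stood at 23.3, 21.1, 11.2 and 22.1 CPM in Control_6w and 51.3, 51.1, 40.1 and 55.3 CPM in IRR_6w (log2 fold change 1.08 ± 0.32 (SE), adjusted p = 0.217). Fcgr3, an activating receptor of low affinity, was at 21.4, 34.2, 10.6 and 26.7 CPM in Control_6w and 42.9, 63.3, 53.2 and 65.7 CPM in IRR_6w (log2 fold change 1.00 ± 0.34 (SE), adjusted p = 0.337). So in CPM by library totals the activating and the inhibitory low-affinity receptors were both higher in every irradiated library. Fcgr1, the high-affinity receptor, stood at 2.36, 6.60, 4.54 and 5.54 CPM in Control_6w and 11.6, 25.2, 6.00 and 27.6 CPM in IRR_6w, and replicate 3 lay among the controls (log2 fold change 1.64 ± 0.53 (SE), adjusted p = 0.285). Fcer1g was at 2.94, 15.8, 16.4 and 13.2 CPM in Control_6w and 29.1, 36.9, 12.5 and 12.4 CPM in IRR_6w, and Tyrobp (DAP12, the adapter of Trem2) at 8.10, 12.6, 6.25 and 9.79 CPM in Control_6w and 19.2, 33.0, 19.4 and 6.36 CPM in IRR_6w. Both adapters overlapped, and both are among the shortest genes of the list, at 874 and 667 bases. Fcgr2b, Fcgr4, Fcgr3 and Fcer1g lie in 1 region of chromosome 1, between 170958617 and 171234365, and 5.42% of short stretches of Fcgr3 also occur in Fcgr2b.

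At 1 day Fcgr4 was at 4.01, 0.658 and 1.41 CPM in Control_1d and 1.78, 2.15 and 5.24 CPM in IRR_1d, and Fcgr2b at 50.7, 17.6 and 19.4 CPM in Control_1d and 28.8, 18.4 and 36.6 CPM in IRR_1d. Fcgr3 stood at 21.0, 13.2 and 21.1 CPM in Control_1d and 25.8, 16.5 and 30.1 CPM in IRR_1d. These ranges overlapped. Fcgr1 did not overlap at 1 day, with 5.33, 2.63 and 3.49 CPM in Control_1d and 5.78, 5.91 and 16.0 CPM in IRR_1d (log2 fold change 1.20 ± 0.60 (SE), adjusted p = 1), and IRR_1d replicates 1 and 2 were close to the highest control.

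Trem2 is a receptor for lipids and dying cells on lipid-laden and scar-associated macrophages. It was the only one of the 4 genes of its group without overlap at 6 weeks (6.63% of all genes). At an unadjusted p under 0.05 with the fold limits 3 of the 4, Trem2, Gpnmb and Lgals3, were higher (3.69%). Trem2 stood at 1.77, 3.19, 0.526 and 1.23 CPM in Control_6w and 10.3, 9.20, 17.3 and 12.9 CPM in IRR_6w, with a clear gap (log2 fold change 2.59 ± 0.56 (SE), adjusted p = 0.0709). At 1 day it was at 6.71, 3.44 and 3.63 CPM in Control_1d and 3.01, 4.03 and 4.34 CPM in IRR_1d, and the Control_1d libraries were above all those of Control_6w. The interaction for Trem2 was 2.87 ± 0.82 (SE), with an unadjusted p of 0.00335 and an adjusted p of 0.926. Gpnmb, a glycoprotein of lipid-laden macrophages, Spp1, osteopontin, and Lgals3, galectin-3, each overlapped at 6 weeks. Gpnmb was at 11.3, 4.22, 8.40 and 1.66 CPM in IRR_6w, Spp1 at 5.34, 1.92, 1.20 and 0.891 CPM and Lgals3 at 48.8, 27.1, 13.9 and 3.80 CPM. In all 3, IRR_6w replicate 1 was the highest and replicate 4 the lowest, and in Spp1 replicates 3 and 4 lay within the control range of 0.142 to 1.71 CPM. Leaving out replicate 1 took the log2 fold change of Spp1 from 1.19 to 0.41, that of Lgals3 from 2.33 to 1.72 and that of Gpnmb from 1.37 to 0.96. At 1 day the same 3 genes were highest in IRR_1d replicate 3, which held 11.1 CPM of Gpnmb, 14.7 CPM of Spp1 and 22.5 CPM of Lgals3, and Gpnmb alone did not overlap (log2 fold change 1.66 ± 0.72 (SE), adjusted p = 1). That library also held the most atrial marker RNA of the 1 day libraries, 1217 CPM against 9.24 to 389, and its part in these values was not tested. Spp1 shares 18.8% of its exonic bases with Gm42793 on the same strand.

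The β2 integrins pair the common chain Itgb2 with an α chain, and help leukocytes to leave vessels and to take up complement-coated particles. Itgam (CD11b) stood at 6.62, 3.19, 4.41 and 3.33 CPM in Control_6w and 15.0, 13.2, 22.7 and 9.92 CPM in IRR_6w, without overlap (log2 fold change 1.56 ± 0.50 (SE), adjusted p = 0.285). At 1 day it was at 2.42, 6.07 and 2.69 CPM in Control_1d and 7.63, 3.34 and 10.7 CPM in IRR_1d, and the groups overlapped. Its level is uncertain, since 68.7% of its exonic bases are shared with the readthrough gene Gm49368 on the same strand. Itgax (CD11c, found on dendritic cells and on macrophages that hold lipid) did not overlap at 6 weeks, at 0.781 to 4.14 CPM in Control_6w and 4.94 to 10.7 CPM in IRR_6w (log2 fold change 2.07 ± 0.94 (SE), adjusted p = 0.551). Its highest control was Control_6w replicate 3, without which the log2 fold change was 2.69 (adjusted p = 0.335). Itgb2 overlapped through Control_6w replicate 3, with 72.2 CPM there, 5.15 to 15.0 CPM in the other controls and 40.6 to 79.2 CPM in IRR_6w. Its log2 fold change was 0.92 with that library and 2.0 without it (adjusted p = 0.0477).

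Receptors for microbes and modified lipids were next. Msr1, the class A scavenger receptor, was at 4.34, 5.04, 4.61 and 6.84 CPM in Control_6w and 16.7, 14.5, 27.8 and 23.0 CPM in IRR_6w (log2 fold change 1.71 ± 0.42 (SE), adjusted p = 0.118). It stood at 28.5, 7.53 and 6.18 CPM in Control_1d and 8.12, 10.8 and 16.3 CPM in IRR_1d. The highest 1 day control was above all the 6 week irradiated libraries. Clec4n (dectin-2, a receptor for fungal sugars) was at 3.46, 2.06, 4.41 and 3.57 CPM in Control_6w and 6.56, 10.9, 15.1 and 17 CPM in IRR_6w (log2 fold change 1.64 ± 0.45 (SE), adjusted p = 0.166). At 1 day Clec4n stood at 3.18, 1.75 and 3.16 CPM in Control_1d and 2.46, 1.18 and 2.34 CPM in IRR_1d. All IRR_6w libraries of Clec4n were above the 10 others. Clec7a (dectin-1, a receptor for β-glucans) did not overlap, at 2.41 to 7.37 CPM in Control_6w and 10.7 to 12.1 CPM in IRR_6w (log2 fold change 1.08 ± 0.41 (SE), adjusted p = 0.41). Cd14, the co-receptor for bacterial lipopolysaccharide, overlapped, at 5.46 to 25.3 CPM in Control_6w and 17.8 to 47.7 CPM in IRR_6w (log2 fold change 0.81 ± 0.43 (SE), adjusted p = 0.632). At 1 day all 4 had log2 fold changes below 0, none was called or without overlap, and that of Msr1 ran from -0.50 to 0.52 over the settings tried.

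Cybb, the catalytic subunit gp91phox of the phagocyte NADPH oxidase that makes superoxide, was the other called gene. It lies on the X chromosome from 9435252 to 9487771 on the minus strand. Its levels were 32.8, 19.9, 17.8 and 24.2 CPM in Control_6w and 60.6, 79.0, 177 and 216 CPM in IRR_6w. The lowest irradiated library was just below the highest library of the other groups and replicates 3 and 4 were far above it, and Cybb rose (log2 fold change 2.21 ± 0.39 (SE), adjusted p = 0.04). At 1 day it stood at 61.6, 27.0 and 25.7 CPM in Control_1d and 17.8, 24 and 33.5 CPM in IRR_1d, and the groups overlapped (log2 fold change -0.61 ± 0.44 (SE), adjusted p = 1). The interaction was 2.81 ± 0.59 (SE), with the smallest unadjusted p of the 43 (0.000273) and an adjusted p of 0.398. Its 6 week call held in 14 of 26 settings. It was lost on leaving out any 1 of the Control_6w libraries or of IRR_6w replicates 2, 3 and 4, or Control_1d replicate 2 or 3 or IRR_1d replicate 2, with adjusted p from 0.0513 to 0.164, and the log2 fold change was 1.92 to 2.45 over all fits that left out 1 library. The call was also lost with the replicate block. Without the 3 libraries low in short genes the log2 fold change was 1.38 (adjusted p = 0.329).

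Ncf1 (p47phox), which carries the cytosolic subunits to the oxidase, was higher in every irradiated library, at 4.01 to 8.02 CPM in Control_6w and 13.8 to 18.7 CPM in IRR_6w (log2 fold change 1.09 ± 0.41 (SE), adjusted p = 0.41). Trpm2, a calcium channel opened by oxidant stress, had low counts and overlapped at 6 weeks, at 0 to 4.14 CPM in Control_6w and 1.98 to 15.8 CPM in IRR_6w (log2 fold change 2.0 ± 1.18 (SE), adjusted p = 0.686). Its log2 fold change was 0.93 without the 3 libraries low in short genes and 2.98 without Control_6w replicate 3, its highest control (adjusted p = 0.405). At 1 day Trpm2 did not overlap, at 0 to 1.10 CPM in Control_1d and 1.60 to 2.34 CPM in IRR_1d.

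Axl and Mertk are receptors for the bridging proteins Gas6 and protein S on dying cells. Mertk was at 18.8, 21.0, 14.1 and 22.7 CPM in Control_6w and 29.7, 34.5, 52.9 and 71.2 CPM in IRR_6w (log2 fold change 1.01 ± 0.31 (SE), adjusted p = 0.253). It stood at 28.3, 9.87 and 13.5 CPM in Control_1d and 16.9, 14.2 and 23.7 CPM in IRR_1d, with the groups mixed. Axl, which fibroblasts and endothelium also carry, had a small difference at 6 weeks (log2 fold change 0.30 ± 0.27 (SE), adjusted p = 0.802). Its levels by library totals did not overlap, at 68.9 to 133 CPM in Control_6w and 142 to 203 CPM in IRR_6w. With TMM scaling the Axl groups overlapped.

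The 4 IRR_6w libraries were not alike. Replicates 3 and 4, which were low in short genes, were compared with replicates 1 and 2 as a difference of mean log2(CPM + 0.5). Ms4a4c (2.20), Trpm2 (1.52), Ms4a6d (1.51), Cybb (1.49) and Adgre1 (1.42) were higher in replicates 3 and 4. Plac8 (-2.93), Lgals3 (-2.23), Fcer1g (-1.36), Spp1 (-1.29) and Tyrobp (-1.14) were lower there. The 6 genes under 1500 bases had a median difference of -0.23 and the 23 genes over 3000 bases one of 0.40. Over the 43 genes Spearman's rho of the difference with gene length was 0.30, and over the 16034 genes 0.212, a description over points that share the same 4 libraries. Without Control_1d replicate 1 and IRR_6w replicates 3 and 4, edgeR called none of the 43 at 6 weeks (0% of all genes), with 4 controls and 2 irradiated libraries left to compare. With the length trend of each library taken out, it called 3, Siglec1, Cybb and Mpeg1 (0.337% of all genes). Both of these fits were added after the data had been seen.

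**Figure D4:**
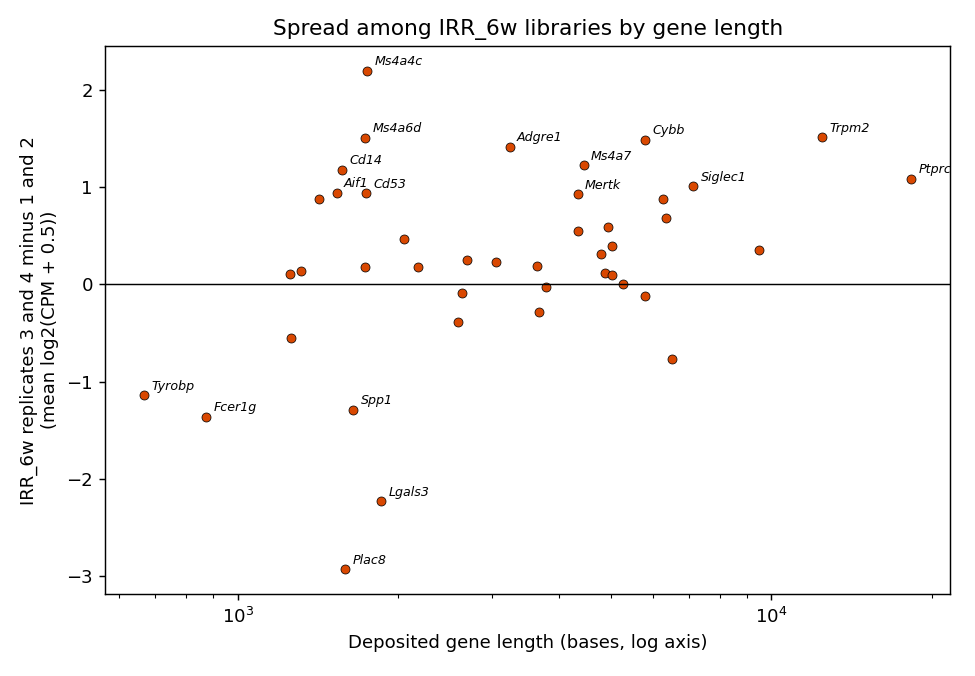
Difference between IRR_6w replicates 3 and 4 and replicates 1 and 2 in mean log2(CPM + 0.5) for each of the 43 genes, against the deposited gene length on a log axis. Tyrobp and Fcer1g, the shortest genes, lie below 0, but Plac8 (-2.93, 1592 bases) and Ms4a4c (2.20, 1751 bases) lie far apart at like lengths.

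To compare levels between genes, counts were divided by gene length and library total (FPKM). Lyz2 was the highest in each group, with a mean of 614 ± 68.2 FPKM (SD, n = 4) in IRR_6w and 210.0 ± 68.5 FPKM in Control_6w. In IRR_6w the next were Adgre1 (40.3 ± 21.9), Cd53 (34.1 ± 12.9), Axl (32.9 ± 5.77), Fcgr3 (32.4 ± 6.00), Csf1r (29.6 ± 4.01), Laptm5 (29.5 ± 0.954) and Tyrobp (29.2 ± 16.3). In this order each differed from the next by less than the larger of their SDs. IRR_6w replicates 3 and 4 were low in short genes, so the order of genes of unlike length in IRR_6w is uncertain. In Control_6w the next places were taken by Laptm5 (25.3 ± 30.2), Axl (22.0 ± 5.87) and Fcer1g (13.8 ± 7.15), of which Laptm5 was set by replicate 3. Trpm2 (0.555 ± 0.491), Gpnmb (0.981 ± 0.658) and Spp1 (1.42 ± 1.24) were the lowest in IRR_6w, and each differed from the next by less than the larger of their SDs.

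The partners of these genes were counted from lists of the same pathways. At 6 weeks 43.8% of all genes were above 0 and 0.237% were called higher. Of 9 further lineage and growth factors, 6 were above 0 at 6 weeks and none was called. Maf, a factor of resident macrophages, was at 36.6, 25.7, 34.9 and 31.2 CPM in Control_6w and 58.2, 60.8, 84.9 and 92.5 CPM in IRR_6w (log2 fold change 0.96 ± 0.22 (SE), adjusted p = 0.0901), and Csf2ra, the GM-CSF receptor, was without overlap as well (log2 fold change 1.24 ± 0.37 (SE), adjusted p = 0.219). Of 12 genes of Fc receptor and ITAM signalling, 8 were above 0 and none was called. Sirpa, the inhibitory receptor for CD47, was at 59.0, 46.8, 38.5 and 41.4 CPM in Control_6w and 63.0, 85.4, 114 and 114 CPM in IRR_6w, without overlap (log2 fold change 0.76 ± 0.24 (SE), adjusted p = 0.285). Among 4 other genes of the oxidase, none was called, and Ncf4, a cytosolic subunit, was higher in every irradiated library than in every control (log2 fold change 1.96 ± 0.63 (SE), adjusted p = 0.282). Of 6 efferocytosis genes, Pros1, which encodes protein S (log2 fold change 1.19 ± 0.30 (SE), adjusted p = 0.124), and Gas6 (log2 fold change 0.90 ± 0.33 (SE), adjusted p = 0.387) had the smallest p, 5 were above 0 and none was called. At 1 day Gas6 was at 114, 95.01 and 160 CPM in Control_1d and 587, 325 and 985 CPM in IRR_1d, without overlap (log2 fold change 2.23 ± 0.39 (SE), adjusted p = 0.168), and was not called. It passed the threshold with DESeq2 (adjusted p = 1.4e-05) and limma (adjusted p = 0.00123), and its adjusted p ran from 0.03 to 1 over the other edgeR settings. At 1 day 2 of the 6 genes were higher at an unadjusted p under 0.05 with the fold limits (1.56% of all genes). Among 8 further genes of lipid-laden macrophages, Ctsb (log2 fold change 0.59 ± 0.24 (SE), adjusted p = 0.472) and Apoe (log2 fold change 0.85 ± 0.49 (SE), adjusted p = 0.67) came first, with a median of 0.25 over the list, and none was called.

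Markers of origin were counted in the same way. Of 5 tested genes of recruited monocytes 1 was called at 6 weeks (0.237% of all genes were called higher) and 2 were without overlap (6.63%). Ccr2, the chemokine receptor that draws monocytes from the blood, was at 5.82, 4.61, 9.14 and 4.87 CPM in Control_6w and 50.7, 49.1, 128 and 94.5 CPM in IRR_6w, and it rose (log2 fold change 3.49 ± 0.57 (SE), adjusted p = 0.025). Its call was lost in 5 of the fits that left out 1 library and with the replicate block, with log2 fold changes of 3.18 to 3.45, and without the 3 libraries low in short genes (2.88, adjusted p = 0.186). Chil3, the other of the 2 smallest p, was at 0 to 0.921 CPM in Control_6w and 9.33, 1.53, 1.13 and 2.97 CPM in IRR_6w (log2 fold change 3.49 ± 1.41 (SE), adjusted p = 0.471). Its highest library, IRR_6w replicate 1, also held the lung markers and the highest sum of neutrophil markers. The part of other cells there in the Chil3 values was not tested. Of 11 genes of resident macrophages 9 were above 0 at 6 weeks (43.8% of all genes), 4 were without overlap (6.63%) and none was called. At an unadjusted p under 0.05 with the fold limits 2 of the 11 were higher (3.69%). Mrc1, the mannose receptor (log2 fold change 1.12 ± 0.24 (SE), adjusted p = 0.0709), and C1qb, a complement subunit (log2 fold change 1.33 ± 0.31 (SE), adjusted p = 0.104), came first. The 2 below 0, named after their values were seen, were Timd4, a receptor for phosphatidylserine on long-lived resident macrophages, at 4.64, 5.46, 2.76 and 3.57 CPM in Control_6w and 4.26, 1.34, 1.95 and 0 CPM in IRR_6w (log2 fold change -1.37 ± 0.88 (SE), adjusted p = 0.712), and Cd163, the haemoglobin scavenger receptor, at 49.4, 32.9, 18.9 and 42.9 CPM and 38.2, 16.8, 13.9 and 23.1 CPM (log2 fold change -0.93 ± 0.40 (SE), adjusted p = 0.51). At 1 day 10 of the 11 were above 0 already (55.1% of all genes). Against IRR_1d, 5 of the 11 were above 0 in IRR_6w (48.5% of all genes) and 6 below. Of 7 genes of MHC class II presentation all were above 0 at 6 weeks (43.8% of all genes), 5 were without overlap (6.63%) and 1 was called (0.237%). The called gene was H2-Eb1, which rose (log2 fold change 1.35 ± 0.25 (SE), adjusted p = 0.0468). The call of H2-Eb1 was lost on leaving out any of the Control_6w libraries, IRR_6w replicate 2, 3 or 4, or 4 of the 6 libraries of 1 day, with adjusted p from 0.0547 to 0.164 and log2 fold changes from 1.25 to 1.39, and without the 3 libraries low in short genes (1.16, adjusted p = 0.359). H2-Aa had the next smallest p (log2 fold change 1.14 ± 0.25 (SE), adjusted p = 0.0709). Against IRR_1d, 4 of the 7 MHC class II genes were called higher in IRR_6w (0.0312% of all genes) and 7 were without overlap (10.7%). The summed CPM of the MHC class II genes was 354 to 585 in Control_6w and 1029 to 1384 in IRR_6w. At 1 day it was 199 to 384 in Control_1d and 89.6 to 170 in IRR_1d, with 7 of 7 genes below 0, 4 of them without overlap (1.97% of all genes were wholly lower) and none called. At 1 day 4 of 4 B cell genes and 6 of 7 dendritic cell genes were below 0 too, and none was called. At an unadjusted p under 0.05 with the fold limits, 2 of the B cell genes and 2 of the dendritic cell genes were lower (0.674% of all genes). The summed CPM of the dendritic cell genes overlapped, at 33.8 to 74.4 in Control_1d and 28.6 to 34.9 in IRR_1d. Most of that sum was Zbtb46, named after its values were seen, at 55.3, 26.5 and 31.6 CPM in Control_1d and 27.2, 27.4 and 24.1 CPM in IRR_1d. The part of B cells and dendritic cells in the MHC class II values was not tested. The B cell difference rested mostly on Control_1d replicate 1, with a sum of 36.25 CPM against 1.17 and 4.03 CPM in the other controls and 0.492 to 1.32 CPM in IRR_1d. Meanwhile the summed CPM of the 43 macrophage genes overlapped, at 726 to 1610 in Control_1d and 988 to 1557 in IRR_1d.

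Other cells that share genes of the list were followed through their own markers. Summed over the list, the 43 genes held 963 to 2011 CPM in Control_6w and 2322 to 3426 CPM in IRR_6w. Of 10 neutrophil genes 8 were tested, all 8 were above 0 at 6 weeks, none was without overlap and none was called, and the sum of the 10 was 7.81 to 29.4 CPM in Control_6w, 144 CPM in IRR_6w replicate 1 and 16.1 to 32.2 CPM in the other irradiated libraries. Of 7 dendritic cell genes 4 were above 0, with sums of 31.6 to 67.3 CPM in Control_6w and 35.7 to 68.7 CPM in IRR_6w. Of the 8 genes of alveolar macrophages, the resident cells of the lung airspace, Ear1 was at 0 in every library, and the sum was 20.8 to 33.1 CPM in Control_6w, 29.5 CPM in IRR_6w replicate 1 and 0 to 10.2 CPM in the other irradiated libraries. That sum was mostly Car4 in the controls (19.3, 31.4, 14.9 and 21.5 CPM, against 4.33, 5.56, 0 and 0 CPM in IRR_6w), a gene that capillary endothelial cells also express. Marco, a scavenger receptor of alveolar macrophages, was at 5.07 CPM in IRR_6w replicate 1, the library with the lung markers, and at most at 0.209 CPM elsewhere, and Ear2 (7.84 CPM) and Plet1 (8.59 CPM) were highest in that library too. These 4 genes were named after their values were seen, and the part of such cells in the values of the 43 genes was not tested beyond the fits without that library. T and NK cell markers held 293 CPM in Control_6w replicate 3 and at most 11.7 CPM in any other library. The median log2 fold change of the 43 genes at 6 weeks was 1.60 without Control_6w replicate 3 and IRR_6w replicate 1, and 1.23 with them.

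**Figure D5:**
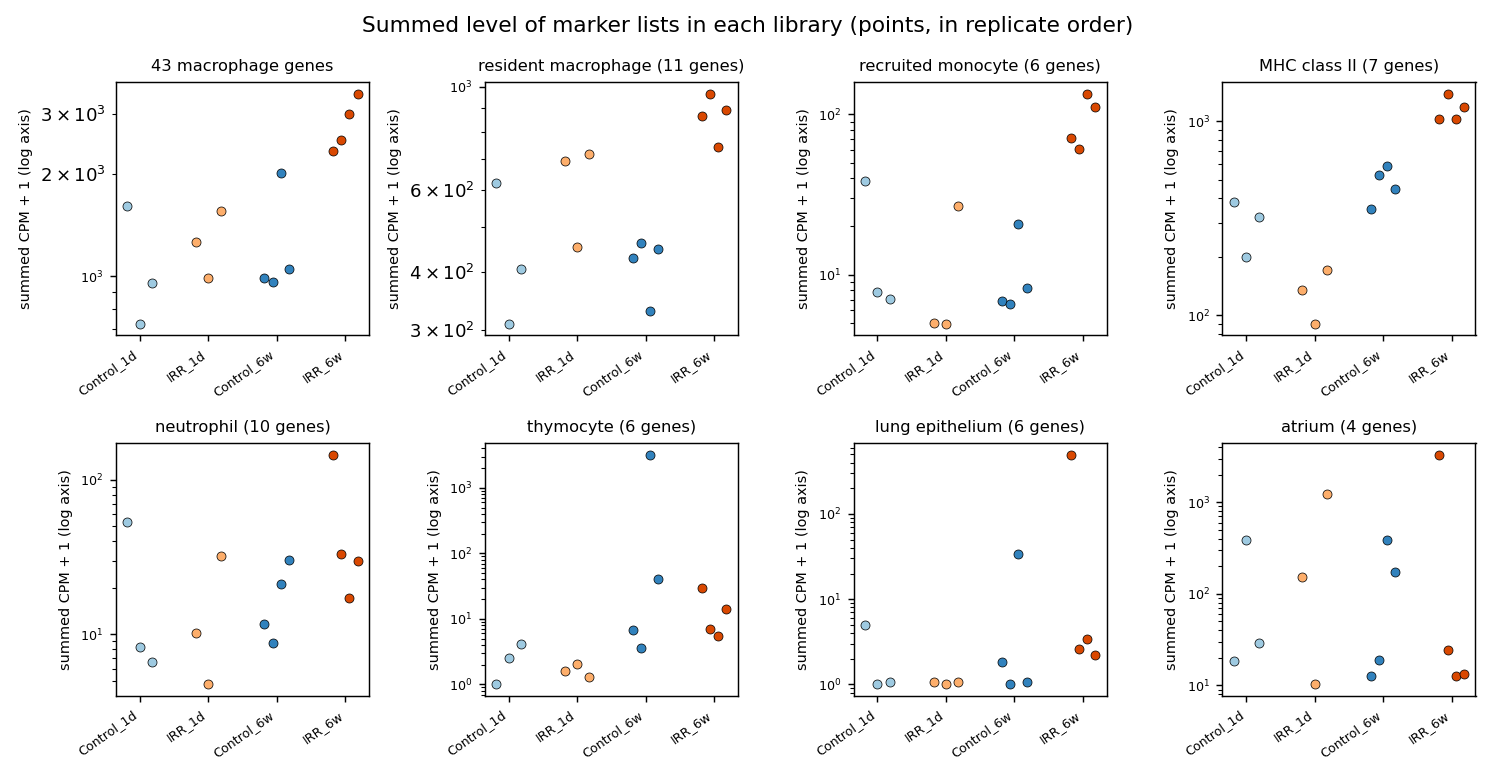
Summed CPM + 1 of the 43 genes and of 7 marker lists in every library, on log axes, by group and in the order of the replicate numbers. The sums of the 43 genes, of resident macrophage genes, of recruited monocyte genes and of MHC class II genes are highest in the 4 IRR_6w libraries, while thymocyte markers peak in 1 Control_6w library and neutrophil, lung and atrial markers in 1 IRR_6w library.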

How the data were processed

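RNA of cardiac tissue from 14 mice was sequenced in paired ends. The authors checked reads with FastQC 0.11.8, trimmed them with Trim Galore 0.6.1, aligned them to mm10 with STAR 2.5.0a and counted them per gene with HTSeq. The annotation release, the counting mode and the use of strand are not given in the sources used here. The deposited table holds whole-number counts per gene and library, with gene lengths by the authors, and 0 of its sample columns were left unmapped.

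Counts were filtered with filterByExpr, scaled by TMM and fitted in edgeR 4.0.16 (R 4.3.3) as 4 groups with its quasi-likelihood test, in place of the DESeq2 of the study. A gene was called at a fold above 2 or below 0.5, the limits of the study, with a Benjamini-Hochberg adjusted p under 0.05 over 16034 genes. DESeq2 1.42.0, limma 3.58.1 (voom with sample weights), other scalings, no filter, a replicate block and the removal of each library were the alternatives. CPM used library totals, and FPKM the deposited lengths. Depth was 13336746 to 16837265 counts, and 0 counts in a library allow up to 3 by counting error alone, which does not hold in the 3 libraries with many genes at 0.

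The members and all lists were chosen with earlier results of these data known. Values in every library are given for the 20 members with the smallest p at 6 weeks. In each partner list the called genes and the 2 of smallest p are named, and some of these are not reported here. The libraries come from separate mice. Columns of no sample were used only for gene identity and length.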

Additional observations from a re-analysis of the deposited data

Results flagged for a closer look

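In the groups of 4, a library was marked when its gap to the nearest other was too large a part of the range of the group by Dixon's 95% limit. For a single group such a limit marks about 1 in 20 by chance. The 86 groups tested share the same libraries, so their number cannot be set against that rate. Of the 86, 11 were marked, and 9 of the 11 were Control_6w replicate 3, the library with the thymocyte markers. That library was high in Ptprc (864 CPM, others 13.5 to 31.6), Laptm5 (267 CPM, others 33.2 to 45.1), Lcp1 (176 CPM, others 41.5 to 61.3), Itgb2 (72.2 CPM, others 5.15 to 15.0), Cd84 (67.7 CPM, others 4.33 to 6.40), Plac8 (17.3 CPM, others 0.284 to 0.801) and Itgax (4.14 CPM, others 0.781 to 1.23). It was low in Lyz2 (141 CPM, others 317 to 326) and Csf1r (32.5 CPM, others 76.2 to 83.0). The part of the thymocyte markers in these values was not tested. The remaining 2 were Ms4a7 in Control_6w replicate 1 (6.70 CPM, others 4.19 to 4.41) and Lyz2 in IRR_6w replicate 4 (942 CPM, others 758 to 773).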

How the results depend on the processing

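The number of the 43 genes called higher at 6 weeks was 2 by edgeR (0.237% of all genes). It was 26 at an unadjusted p (3.69%) and 22 by limma (2.79%). By DESeq2 it was 15 on all libraries (1.92%) and 17 on the 2 groups (1.83%). The count was 4 with robust estimation (0.256%), 7 with library totals (0.486%), 6 with no filter (0.343%) and 1 with the replicate block (0.0312%). Leaving out 1 library gave 0 to 6 (0 to 0.602%). Without both Control_6w replicate 3 and IRR_6w replicate 1 it was 10 (0.8%). Without Control_1d replicate 1 and IRR_6w replicates 3 and 4 it was 0 (0%). The last setting and the length offsets, which called 3, were chosen after seeing the data. Of these single libraries, Control_6w replicates 1 and 2 and IRR_6w replicates 3 and 4 each took it to 0. The median log2 fold change at 6 weeks stayed between 1.20 and 1.60 in all these settings. At 1 day the count was 3 at an unadjusted p (1.56% of all genes), 1 and 2 by DESeq2 (0.161% and 0.264%) and 2 by limma (0.218%). Between controls it was 1 higher (2.72%) and 2 lower (1.03%) at an unadjusted p. Between irradiated groups it was 15 at an unadjusted p (3.06% of all genes) and 13 by limma (1.83%). DESeq2 called 5 and 12 there (0.849% and 1.99%). The count was 2 with no filter (0.0741%), 0 to 2 on leaving out 1 library (0.0176% to 0.192%) and 7 without the pair (0.714%). For the interaction it was 15 at an unadjusted p (1.98%), 2 by DESeq2 (0.244%) and 1 by limma (0.106%). On leaving out 1 library, genes without overlap numbered 6 to 17 higher (9.27% to 23.2% of all genes) and 0 to 2 lower (3.43% to 6.39%) at 1 day, 27 to 34 higher at 6 weeks (7.3% to 14.2%), 23 to 32 higher between irradiated groups (11.7% to 22.7%), and 0 to 3 higher (7.57% to 17.3%) and 1 to 4 lower (1.37% to 3.56%) between controls. Without the 3 libraries low in short genes there were 17 higher at 1 day (16.5%), 33 at 6 weeks (12.9%) and 27 between irradiated groups (21.2%). Between controls there were then 2 higher (14%) and 1 lower (1.76%). Without the pair there were 35 higher at 6 weeks (17%) and 28 between irradiated groups (15.9%). Between controls the pair's removal left 1 higher (9.14%) and 2 lower (2.43%). Library totals moved the median of all genes by 0.0758 at 1 day and 0.233 at 6 weeks.

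The sign of the log2 fold change was the same in every setting for 39 of the 43 genes at 6 weeks, 35 between irradiated groups, 26 for the interaction, 22 at 1 day and 15 between controls. Of the fold changes given with their SE or by library left out, these turned, and the cause was not tested. Ptprc at 6 weeks was 1.95 by limma, 1.13 with the replicate block, 2.14 without Control_6w replicate 3 and 2.25 without the pair (-1.29 to 2.14 on leaving out 1 library), and between controls -0.329 and -0.332 in the last 2 (-0.329 to 3.25). Laptm5 at 6 weeks was -0.166, -0.178 and -0.0863 without Control_6w replicates 1, 2 and 4 (-0.178 to 1.22). Plac8 was -0.399 at 1 day without IRR_1d replicate 3 (-0.399 to 4.58), and at 6 weeks -0.0303, -0.0408 and -0.467 without Control_6w replicate 1, Control_6w replicate 2 and IRR_6w replicate 1 (-0.467 to 3.26). Cd84 at 6 weeks was -0.0709 without the 3 libraries. Same-numbered libraries correlated from -0.387 to 0.461, so the numbers were not taken as pairs, and the replicate block, which could be fitted at 1 day, at 6 weeks and for the interaction, left the adjusted p of Cybb at 0.302 and of Siglec1 at 0.0235.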

Other observations

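Other cell types were followed by marker lists at 6 weeks, and no gene of the lists given here was called by edgeR. Of 6 fibroblast genes 5 were above 0 (43.8% of all genes) and 4 were without overlap (6.63%). At an unadjusted p under 0.05 with the fold limits 3 were higher (3.69%). The summed level of the 6 was 1071 to 2107 CPM in Control_6w and 2466 to 3887 CPM in IRR_6w. Of 5 endothelial genes 3 were above 0, with sums of 564 to 1465 CPM in Control_6w and 1061 to 1935 CPM in IRR_6w. All 6 cardiomyocyte genes were below 0, with a median of -0.74, and their sums overlapped. All 4 B cell genes were above 0 and none was without overlap. All 4 mast cell genes were below 0, with sums of 7.36 to 14.2 CPM in Control_6w and 0 to 19.2 CPM in IRR_6w. Of 5 erythroid genes all were above 0 (43.8% of all genes) and 4 were higher at an unadjusted p (3.69%). Their sum was 74010 CPM in IRR_6w replicate 1 against 2991 to 12550 CPM in the others of that group. The 3 brown fat genes held 1108 CPM in that library, 798 CPM in Control_6w replicate 3, 304 CPM in IRR_1d replicate 3 and at most 19.7 CPM in the other 11.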
